A study of Rattus with 18 samples.

Results

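Rats given an antibody against Thy1 develop a nephritis of the mesangium, and this account describes the glomeruli taken 4 days after that injection against glomeruli of saline-injected controls. The members were the 3 arrays whose titles name day 4 and the 3 whose titles name the normal control, 6 of the 18 arrays of the series. All animals were rats of the strain given as SD. The day 4 animals had received the anti-Thy1 antibody and were killed on day 4, and the controls had received saline and were killed on day 0, so no saline-injected animals of day 4 were among the arrays. The remaining arrays are 3 each from days 1, 2, 3 and 5 after the antibody. The design text speaks of 6 rats per time point and 3 glomeruli of each, while 3 arrays stand for each time point, and it does not say which animals an array holds. The p-values below therefore measure the spread between arrays, which may be in part technical.

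Thy1 is a glycoprotein that rat mesangial cells, the contractile cells between the glomerular capillaries, carry on their surface. The antibody binds it, complement is activated on the bound cells and many of them lyse. Over the following days the remaining mesangial cells proliferate, take on features of myofibroblasts and deposit extracellular matrix, while monocytes enter the tuft. In whole glomeruli, fewer cells of a type and less RNA per cell cannot be told apart.

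Total RNA was labelled with Cy3 and hybridised to one-colour Agilent rat arrays. A value here is the log2 of a probe's background-corrected signal minus the log2 of the 75th percentile of that array, so that 0 is the brightness of the 75th percentile probe. The precision is limited by 3 arrays per group. Before scaling, the 75th percentile lay at 343.9, 452.4 and 385.7 on the day 4 arrays and at 188.8, 180.7 and 229.2 on the control arrays, so every day 4 array was brighter. The number of probes well above background lay between 26684 and 27277 on day 4 arrays and between 27298 and 28528 on controls. The control arrays shared 1 slide and the first scan day, day 4 replicate 1 lay on a slide with the day 2 arrays, and replicates 2 and 3 on another slide, both read on the second scan day. Scan day and group therefore cannot be told apart in this comparison.

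A pair of arrays stood apart. Day 4 replicate 1 correlated with replicates 2 and 3 at 0.973 and 0.979, against 0.991 between replicates 2 and 3. Only the 21736 probes that each of the 18 arrays read well above background entered these correlations. Of the 23187 genes tested, replicate 1 lay above both other day 4 arrays in 10747 and below both in 7755. Counts of that kind in the lists below are read against these. Control replicate 4 had the lowest weight of the 18 arrays when limma weighted arrays by their fit (0.141, against 1.46 and 3.96 for the other controls). It was the highest control in 80.6% of the genes that fell and the lowest control in 88.1% of those that rose. Its own values entered those calls, and the shares over all genes are not given here. Where a call ended without control replicate 4, its adjusted p without that array is given. Markers of both glomerulus and tubule were well above background on all 6 arrays, among them Nphs1, a podocyte slit diaphragm protein, and Umod, Slc34a1 and Lrp2, which mark the thick ascending limb and the proximal tubule.

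Many of the measured genes differed between day 4 and control glomeruli, in a number that depended on the processing. Of 23187 genes tested with limma, 5931 rose (25.6%) and 6188 fell (26.7%) at a Benjamini-Hochberg adjusted p under 0.05, so 52.3% passed in all. The median gene that rose did so by 0.89 on the log2 scale and the median gene that fell had a change of -1.25. All 3 day 4 arrays lay above all 3 controls in 28.8% of genes and below them in 30.0%. These percentages are the background against which each group of genes below is read. The scale matters for the split. The median change of all genes was 0.05 with the 75th percentile, 0.46 when arrays were scaled to their median and -0.56 when they were scaled to 12 reference genes, and the split moved to 9743 higher and 3941 lower with the median and to 1543 higher and 11430 lower with the reference genes. Without control replicate 4, 4194 genes rose and 5124 fell. The 12119 genes that passed in all became 9276 with the 6 arrays alone. They became 7814 with replicate number as a block and 3090 with normexp background correction. Counts of list members without that array, without day 4 replicate 1 or with the reference genes are given below beside the lists they bear on.

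The position of a probe along its transcript went with the direction of the difference. For 2909 genes with a current symbol, 2 probes could be put in order along 1 strand by their rn4 positions, between 100 and 100000 bases apart. The probe nearer the 3′ end had the more positive day 4 minus control difference in 2010 of them (69.1%). The median difference was 0.36 at the 3′ probes and -0.14 at the 5′ probes. When each of these genes was represented by its 3′ probe, 1118 rose and 328 fell, and when it was represented by its 5′ probe, 630 rose and 899 fell. Both probes rose in 440 genes and both fell in 195. The 5′ probe fell while the 3′ probe rose in 192 genes, and the opposite held in 16. The gap widened with distance: the median of the 3′ minus the 5′ difference was -0.03 for 277 pairs of 100 to 499 bases, 0.17 for 313 pairs of 500 to 999 bases, 0.25 for 394 pairs of 1000 to 1999 bases and 0.56 for 1925 pairs further apart.

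The shift in 3′ against 5′ signal was not particular to day 4. Relative to the mean of the controls, the median 3′ minus 5′ signal was 0.37, 0.43 and 0.41 on the day 4 arrays, against 0.13, -0.25 and 0.10 on control replicates 2, 4 and 5. On the day 2 arrays it lay between 0.25 and 0.40, on the day 3 arrays between 0.36 and 0.39, on the day 5 arrays between 0.38 and 0.41 and on the day 1 arrays between 0.22 and 0.36. Day 1, 3 and 5 arrays were scanned on the controls' day, and day 1 replicate 1, at 0.35, lay on the controls' slide. Control replicate 4 was the lowest of the 18 arrays. No values of RNA integrity were used here, and the part of this shift in the gene results below was not tested. Both probes are given for the genes described below that have 2 ordered probes.

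**Figure D1:**
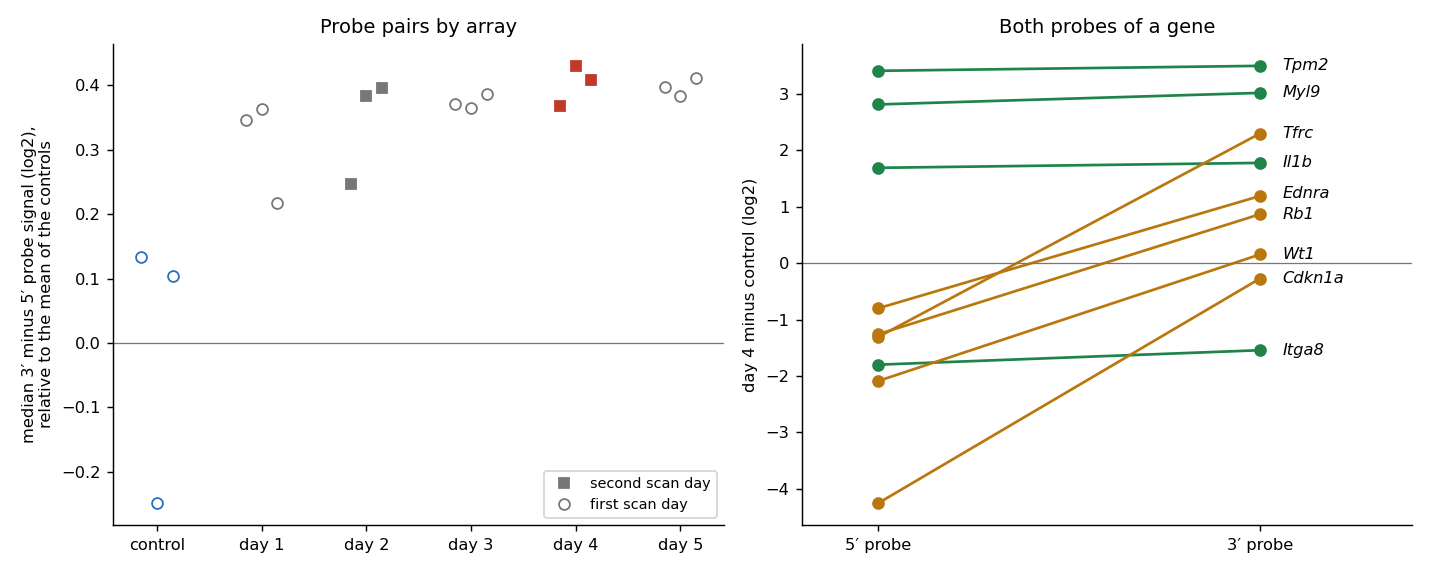
Left, the median over 2909 genes of the 3′ probe minus the 5′ probe signal (log2), relative to the mean of the controls, for each array, from the saline control to day 5, with filled squares for the second scan day and open circles for the first. The day 4 arrays sit between 0.37 and 0.43 and the control arrays between -0.25 and 0.13. Right, day 4 minus control difference (log2) at the 5′ and the 3′ probe of named genes, 1 line a gene: Cdkn1a, Wt1, Tfrc, Rb1 and Ednra differ by over 1.9 between their probes, and Myl9, Tpm2, Il1b and Itga8 by less than 0.3.

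Probe sequences from the scanner files show how close together such differences can lie in single genes. Over the 277 pairs of 100 to 499 bases the 3′ probe was the more positive in 48.0%, with a median of -0.03. Col1a1 and C1s below therefore do not stand for pairs at that distance. Col1a1, the main chain of type I collagen, has overlapping probes at its 3′ coding end on chromosome 10 of rn4, plus strand, at chr10:83637903-83637962 and chr10:83637956-83638015. They are given 5′ to 3′ with the 7 bases they share by position in capitals, of which 1 differs between the deposited sequences; the second probe ends with the stop codon.
Col1a1 probe 1: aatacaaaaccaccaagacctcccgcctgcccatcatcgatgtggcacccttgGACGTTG
Col1a1 probe 2: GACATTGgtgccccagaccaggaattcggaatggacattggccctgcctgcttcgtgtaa
The first probe read -0.18, 1.83 and 2.99 on day 4 arrays and 1.10, 1.14 and 0.51 on controls. The second read 0.26, 2.55 and 3.83 on day 4 arrays and 1.01, 1.66 and 0.87 on controls. Another probe, further 3′, read 1.57, 4.43 and 5.75 on day 4 arrays and 1.76, -0.06 and 1.10 on controls. The day 4 minus control difference was thus 0.63, 1.03 and 2.98 in that order along the strand, and replicate 1 was the lowest day 4 array at each.

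C1s, the protease that cleaves complement C4 and C2, has probes 439 bases apart on chromosome 4, minus strand, at chr4:160737164-160737223 and chr4:160736725-160736784. They are shown because only the one nearer the 3′ end rose.
C1s 5′ probe: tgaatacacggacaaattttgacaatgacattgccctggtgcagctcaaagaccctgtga
C1s 3′ probe: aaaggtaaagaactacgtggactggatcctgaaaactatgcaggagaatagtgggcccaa
The 3′ probe read -1.11, -1.21 and -1.68 on day 4 arrays and -2.68, -2.87 and -2.56 on controls, without overlap (log2 change 1.37 ± 0.36 SE, adjusted p = 0.0058). The 5′ probe read -3.15, -3.41 and -3.26 on day 4 arrays and -3.51, -3.18 and -3.06 on controls, which overlap (change -0.02 ± 0.23, adjusted p = 0.95).

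Wt1, a zinc-finger transcription factor of podocytes, shows the same order with the opposite sign. Its 5′ probe lies on chromosome 3, plus strand, at chr3:90575931-90575990, 1244 bases before the other.
Wt1 5′ probe: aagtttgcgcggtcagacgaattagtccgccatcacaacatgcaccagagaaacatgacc
That probe fell, with 0.06, 0.19 and -0.36 on day 4 arrays against 1.59, 2.85 and 1.72 on controls (adjusted p = 0.00027 in the limma fit with the 5′ probe of each gene). The 3′ probe read 4.14, 4.35 and 3.55 on day 4 arrays and 4.14, 3.33 and 4.11 on controls, which overlap. Cdkn1a, the Cdk inhibitor p21, had a change of -4.25 at its 5′ probe and -0.27 at its 3′ probe. Rb1 and Ednra, the retinoblastoma protein and the endothelin A receptor, changed in both directions: Rb1 fell by 1.26 at the 5′ probe and rose by 0.86 at the 3′ probe, and Ednra fell by 0.80 and rose by 1.19.

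Contractile genes of smooth muscle were higher on day 4, with replicates 2 and 3 well above replicate 1. Of 17 members tested among contractile genes of smooth muscle and myofibroblasts, 10 were past the threshold above the controls and 3 below them, with a median change of 0.92 (0.30, with 5 higher and 3 lower, after scaling to the reference genes). Tagln, an actin-bundling protein of smooth muscle, read 1.10, 4.56 and 4.41 on day 4 arrays and -0.23, -0.53 and -0.38 on controls. All day 4 arrays lay above all controls, replicate 1 by the smallest margin, and the change was 3.74 ± 0.88 (adjusted p = 0.0029). Its probe lies on chromosome 8, minus strand, and its ends span chr8:48902736-48903116, which is longer than the probe itself.
Tagln probe: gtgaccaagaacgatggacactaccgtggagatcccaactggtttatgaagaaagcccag
Myl9, the regulatory light chain of smooth muscle myosin, read 4.55, 7.42 and 7.16 on day 4 arrays and 3.95, 2.85 and 3.29 on controls, a rise of 3.01 ± 0.71 (adjusted p = 0.0029). Tpm2, a muscle tropomyosin, rose by 3.49 ± 0.89. Both of them rose at the 5′ probe as well, by 2.81 and 3.41. Tpm1 rose by 1.90, and by 1.15 at its 5′ probe. Actn1, which cross-links actin, rose by 0.91 at its 3′ probe, while its 5′ probe did not pass (0.46, adjusted p = 0.14).

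The rise did not extend to every contractile gene. Myh11, the myosin heavy chain of differentiated smooth muscle, read -0.28, -0.64 and -0.18 on day 4 arrays and 0.60, 0.36 and 0.25 on controls, and fell by 0.77 (adjusted p = 0.0019); its 3′ probe did not pass, at 0.19 ± 0.29. Mylk, the kinase that phosphorylates myosin light chains, fell by 0.76 and fell at its 5′ probe too, by 0.56. Cnn1 was too dim to be tested, and no probe was matched to Acta2.

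Few mesangial cell and pericyte markers passed, and their number depended on day 4 replicate 1. Of 21 tested, 3 rose and 2 fell, shares below the background, and the median change was 0.37 (-0.25, with none higher and 4 lower, with the reference genes). Replicate 1 lay below both other day 4 arrays in 18 of the 21, and without it 7 rose, 1 fell and the median was 0.68. The counts were 2 and 1 without control replicate 4. Thy1 itself, the target of the antibody, read -0.89, 1.55 and 0.17 on day 4 arrays and -0.02, 0.46 and -0.70 on controls. The groups overlapped and the change was 0.37 ± 0.59 (adjusted p = 0.62). Pdgfrb, the PDGF receptor through which mesangial cells are driven to divide, read 1.09, 2.30 and 2.18 on day 4 arrays and 1.89, 0.91 and 1.17 on controls (adjusted p = 0.26). Itga8, the mesangial integrin chain, read -3.17, -2.38 and -2.95 on day 4 arrays and -1.04, -0.23 and -1.84 on controls. Its arrays did not overlap. The brightest of its 3 probes fell by 1.80 on the log2 scale (adjusted p = 0.0061), the ordered 3′ probe fell by 1.54, and the probe with the smallest change had -0.82. Fhl2, a LIM-domain partner of actin-linked transcription, rose by 1.84 and Agtr1a, an angiotensin II receptor, by 0.76.

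Matrix genes rose as a minority of their list. Of 36 collagens, glycoproteins and proteoglycans tested, 13 rose and 3 fell, with a median of 0.54 (-0.08, with 1 higher and 11 lower, with the reference genes). Without control replicate 4, 3 rose and 3 fell. Col8a1, a short-chain collagen of vascular walls, separated the day 4 arrays most: it read -3.99, 2.67 and 2.31 on day 4 arrays and -4.46, -4.03 and -4.39 on controls. Replicate 1 lay just above the highest control, and replicates 2 and 3 lay far above (change 4.62 ± 1.46, adjusted p = 0.016). Col3a1, a fibrillar collagen, read 0.92, 2.78 and 2.23 on day 4 arrays and -1.23, -0.61 and 0.04 on controls, a rise of 2.58 ± 0.81 (adjusted p = 0.016). The 3′ probe of Col1a1, described above, passed (adjusted p = 0.02, and 0.093 without control replicate 4). Col5a2, which joins fibrils of type I collagen, rose by 2.09, and its adjusted p without control replicate 4 was 0.051.

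Thbs1, which activates latent TGF-beta, went the other way. It read -1.96, -3.10 and -2.77 on day 4 arrays and -0.65, 1.18 and -0.08 on controls, a fall of 2.76 on the log2 scale (adjusted p = 0.00057). It was read by 1 tested probe, and its difference did not pass against day 2 (-0.21, adjusted p = 0.89) or day 3 (-0.43, adjusted p = 0.67).

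Of 16 enzymes that modify or cross-link collagen, 8 rose and 2 fell. Of these, 4 rose and 2 fell without control replicate 4, and 2 rose and 3 fell with the reference genes. Lox, the lysyl oxidase that starts collagen cross-links, read -0.79, 1.54 and 0.35 on day 4 arrays and -2.30, -2.33 and -1.29 on controls, a rise of 2.34 ± 0.66 (adjusted p = 0.0085); the 5′ probe rose by 1.86. P4ha1, the prolyl hydroxylase subunit that stabilises the collagen helix, read 1.23, 1.20 and 0.88 on day 4 arrays and -0.31, -0.78 and -0.33 on controls. Its day 4 arrays agree closely, replicate 1 included (change 1.58 ± 0.18, adjusted p = 0.00015). Loxl4 fell by 2.60.

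Of 20 matrix proteases and inhibitors, 10 rose and 1 fell (4 and 6 with the reference genes, 8 and 0 without control replicate 4). Timp1, which inhibits metalloproteinases, read 3.15, 4.45 and 4.09 on day 4 arrays and 2.57, 2.15 and 2.38 on controls, a rise of 1.53. Adamts1, a secreted protease that cleaves proteoglycans, read -0.88, -0.81 and -1.15 on day 4 arrays and -2.25, -3.64 and -3.44 on controls, a rise of 2.16 ± 0.34 (adjusted p = 0.00032). Both genes separated the groups without overlap. Mmp12, the macrophage elastase, rose by 4.34, and it was well above background on 1 control array.

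Grem1, an antagonist of bone morphogenetic proteins, was among the large rises. It read 3.33, 2.11 and 2.54 on day 4 arrays and -0.75, -2.21 and -0.98 on controls. Here replicate 1 was the highest of the day 4 arrays, unlike in the contractile and collagen genes. The change was 3.97 ± 0.48 (adjusted p = 0.00015), and the 5′ probe rose by 2.95. Inhba, a subunit of activin A, read -3.31, 0.89 and 0.88 on day 4 arrays and -2.59, -3.47 and -3.55 on controls; replicate 1 lay inside the range of the controls (adjusted p = 0.031, and 0.09 without control replicate 4).

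Among all 50 growth factor ligands, receptors and antagonists tested, 13 rose (26%) and 8 fell (16%). The share that rose lay near the 25.6% of all genes. The median was 0.38 (-0.23, with 5 higher and 18 lower, with the reference genes). When control replicate 4 was left out, 6 rose and 8 fell. Tgfbr3, the TGF-beta co-receptor betaglycan, read -2.22, -2.38 and -2.44 on day 4 arrays and 0.06, 1.32 and 0.75 on controls, a fall of 3.05 on the log2 scale (adjusted p = 0.00021). Pdgfb, the mesangial mitogen, had a change of -1.02 (adjusted p = 0.025, and 0.13 without control replicate 4), and Tgfb1 of 0.31 ± 0.38 (adjusted p = 0.51). Of 18 integrins and matrix receptors, 3 rose (16.7%) and 7 fell (38.9%), and 1 and 11 did so with the reference genes. Cd44, the hyaluronan receptor, read -0.06, 0.66 and 0.54 on day 4 arrays and -0.86, -1.75 and -1.36 on controls, a rise of 1.70 ± 0.32 (adjusted p = 0.00079). Ddr1, a collagen-binding receptor kinase, fell by 3.13.

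**Figure D2:**
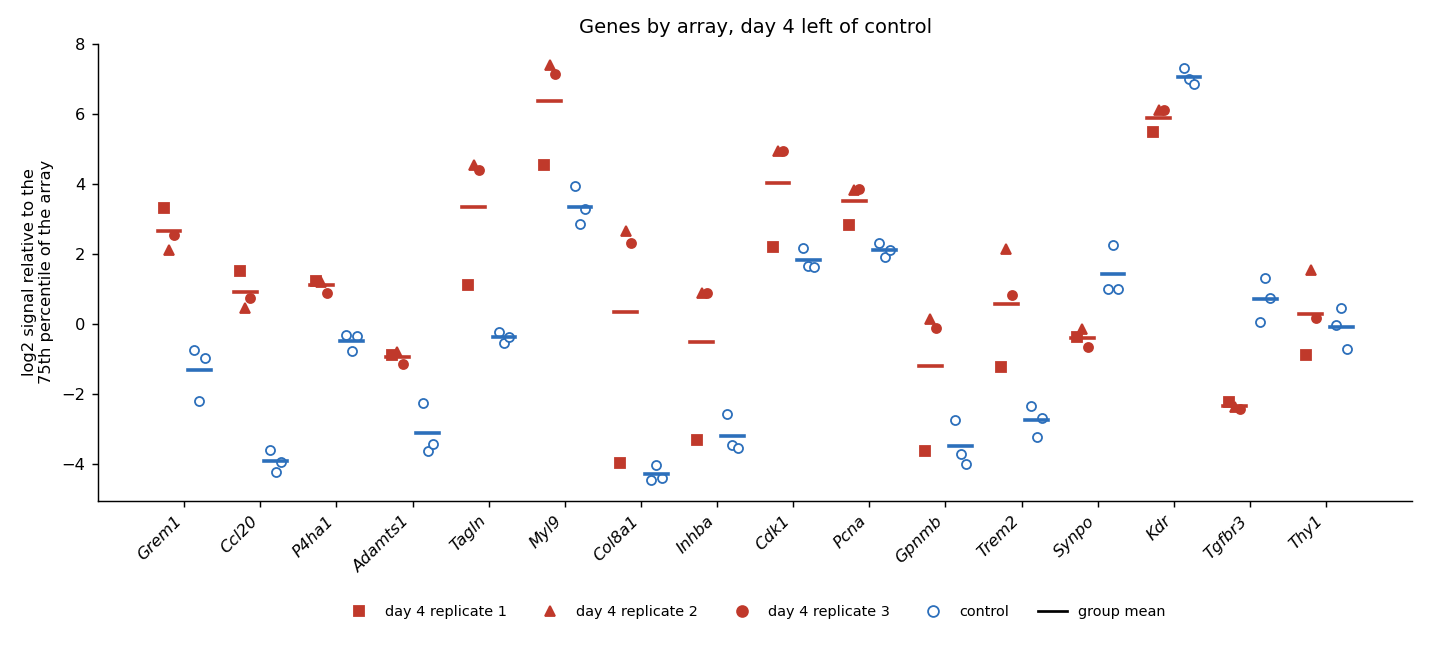
Log2 signal relative to the 75th percentile of each array for 16 genes, with the 3 day 4 arrays at the left of each gene and the 3 control arrays at the right; marker shape gives the day 4 replicate and the bar is the group mean. Replicate 1 of day 4 lies near the controls for Col8a1, Inhba, Cdk1 and Gpnmb and with the other day 4 arrays for Grem1, Ccl20, P4ha1 and Kdr.

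Of 28 chemokines and chemokine receptors tested, 11 rose, none fell and 17 did not pass, with a median of 1.19 (0.58, with 5 higher and 2 lower, with the reference genes). Leaving out control replicate 4, 6 rose and 1 fell. Ccl20, which attracts cells bearing Ccr6, read 1.52, 0.45 and 0.75 on day 4 arrays and -3.61, -4.24 and -3.95 on controls. No control came near the day 4 arrays, replicate 1 was the highest of them, and the change was 4.84 ± 0.57 (adjusted p = 0.00015). Cxcl13, the B-cell attractant, read 0.92, 4.46 and 2.94 on day 4 arrays and 0.10, 0.33 and -0.02 on controls, a rise of 2.64 ± 0.63 (adjusted p = 0.0031). Ccl2, the main monocyte attractant, read 2.53, 0.96 and 0.75 on day 4 arrays and -0.24, -0.96 and -0.29 on controls, a rise of 1.91 (adjusted p = 0.0042). Cxcl10, an interferon-induced chemokine, rose by 1.98.

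Of 25 cytokines, adhesion molecules and their regulators, 8 rose (32%, near the 25.6% of all genes) and 2 fell (8%). These counts became 3 and 1 without control replicate 4, and 2 and 8 with the reference genes. Il1b read -0.45, -0.15 and 0.20 on day 4 arrays and -1.52, -1.91 and -2.30 on controls, a rise of 1.77 ± 0.33 (adjusted p = 0.00075), and its 5′ probe rose by 1.69. Tnfrsf12a, the receptor of TWEAK, read 2.62, 3.26 and 3.44 on day 4 arrays and 1.53, 0.96 and 1.31 on controls, a rise of 1.84 ± 0.31 with 1.41 at the 5′ probe. In both genes every day 4 array lay above every control. Icam1 read 1.70, 1.29 and 1.32 on day 4 arrays and 1.48, 0.77 and 1.13 on controls, which overlap (adjusted p = 0.23). Il6, Tnf and Nos2 were too dim on these arrays to be tested.

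Macrophage markers depended on the day 4 array. Of 25 tested, 7 rose (28%, near the 25.6% of all genes) and none fell. The median over the list, relative to the mean of the controls, was -0.06, 1.95 and 1.46 on day 4 arrays and 0.52, -0.16 and -0.40 on controls, and replicate 1 was the lowest day 4 array in 25 of 25. Without replicate 1, 17 of the 25 rose, and 2 did so without control replicate 4 or with the reference genes. Trem2, a lipid-sensing receptor of macrophages, read -1.24, 2.15 and 0.82 on day 4 arrays and -2.35, -3.24 and -2.68 on controls (change 3.33 ± 0.98, adjusted p = 0.011). Cd14, the co-receptor for bacterial lipopolysaccharide, read 0.81, 1.71 and 1.27 on day 4 arrays and 0.18, -0.40 and -0.14 on controls (change 1.38 ± 0.28, adjusted p = 0.0013, and 0.99 at the 5′ probe). Gpnmb, a glycoprotein of lysosome-rich macrophages, read -3.64, 0.15 and -0.11 on day 4 arrays and -2.76, -3.72 and -4.01 on controls, with replicate 1 among the controls (adjusted p = 0.043, and 0.11 without control replicate 4). Cd68, the lysosomal macrophage marker, read 0.05, 1.77 and 1.77 on day 4 arrays and 0.79, 0.20 and 0.06 on controls (adjusted p = 0.21).

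Other leukocyte lists held few calls. Of 18 lymphocyte and natural killer cell genes none rose and 1 fell, of 8 neutrophil genes none rose and 1 fell, and none of 6 platelet genes passed. The lymphocyte list depended on day 4 replicate 1, which lay below both other day 4 arrays in 18 of 18 genes. Relative to the control mean its median was -0.66, 0.98 and 1.32 on day 4 arrays and 0.29, 0.14 and -0.54 on controls. Without replicate 1, 4 of the 18 lymphocyte genes and 3 of the 6 platelet genes rose, with medians of 1.11 and 1.33, and 1 of the 8 neutrophil genes rose. Cd3e, the T-cell receptor subunit, read -3.97, -2.97 and -2.97 on day 4 arrays and -2.94, -3.03 and -4.43 on controls. S100a9, a neutrophil calcium-binding protein, read -0.32, -0.03 and 1.94 on day 4 arrays and -0.15, -1.57 and -0.46 on controls, which overlap (adjusted p = 0.082).

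Of 23 complement genes tested, 7 rose (30.4%, near the 25.6% of all genes) and none fell. The median was 0.62 (0.0016, with 1 higher and 2 lower, with the reference genes). C5ar1, the receptor of the anaphylatoxin C5a, read -2.18, -0.65 and -0.77 on day 4 arrays and -2.06, -3.34 and -3.83 on controls; replicate 1 lay just below the highest control (change 1.88 ± 0.49, adjusted p = 0.0057). C3 had a change of 0.37 ± 0.35 (adjusted p = 0.39). Of 7 MHC class II genes 5 rose, and without control replicate 4, 2 did (1 with the reference genes). Cd74, the invariant chain, read 5.28, 5.11 and 5.89 on day 4 arrays and 4.97, 4.30 and 4.09 on controls (change 0.97 ± 0.33, adjusted p = 0.025, and 0.079 without control replicate 4).

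Proliferation genes split the day 4 arrays more sharply than any other list described here. Of 32 genes of mitosis and cytokinesis, 14 rose and 1 fell, with a median of 1.67. Relative to the control mean the list's median was 0.03, 2.42 and 2.50 on day 4 arrays and 0.29, -0.12 and -0.13 on controls, so replicate 1 lay inside the range of the controls. Replicate 1 was the lowest day 4 array in 30 of the 32. Cdk1, the kinase that starts mitosis, read 2.19, 4.94 and 4.95 on day 4 arrays and 2.19, 1.66 and 1.62 on controls (change 2.21 ± 0.77, adjusted p = 0.027). Ccnb1, its cyclin partner, read -1.64, 1.69 and 1.69 on day 4 arrays and -1.37, -1.51 and -1.92 on controls (adjusted p = 0.043 at this 5′ probe, and 0.056 at the 3′ probe, with a change of 1.94). Mki67, a proliferation antigen of cycling nuclei, read 0.04, 1.77 and 2.03 on day 4 arrays and 0.00, -0.71 and -0.69 on controls (adjusted p = 0.043 at this 3′ probe, and 0.069 at the 5′ probe, with a change of 1.42). The adjusted p without control replicate 4 was 0.077 for Cdk1, 0.091 for Ccnb1 and 0.12 for Mki67. Without replicate 1, 25 of the 32 mitosis genes rose, and without control replicate 4, 3 did. With the reference genes 3 rose and 3 fell.

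DNA replication genes rose in 14 of 31, with none lower. Without day 4 replicate 1, 24 rose, without control replicate 4, 10 did, and with the reference genes 5 rose and 1 fell. Pcna, the sliding clamp of DNA polymerase, read 2.82, 3.83 and 3.86 on day 4 arrays and 2.32, 1.91 and 2.11 on controls. Its arrays did not overlap, and the change was 1.39 ± 0.35 (adjusted p = 0.0046), with 2.12 at the 5′ probe. Rfc4, a subunit of the loader of that clamp, read -0.74, 0.51 and 0.59 on day 4 arrays and -2.03, -2.65 and -2.09 on controls, a rise of 2.38 ± 0.44 (adjusted p = 0.00073). Tyms, which makes thymidylate, rose by 1.90. For these 3 genes, and for the list as a whole (0.09, 1.53 and 1.64 on day 4 arrays, 0.20, -0.17 and -0.12 on controls), replicate 1 was the lowest day 4 array.

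**Figure D3:**
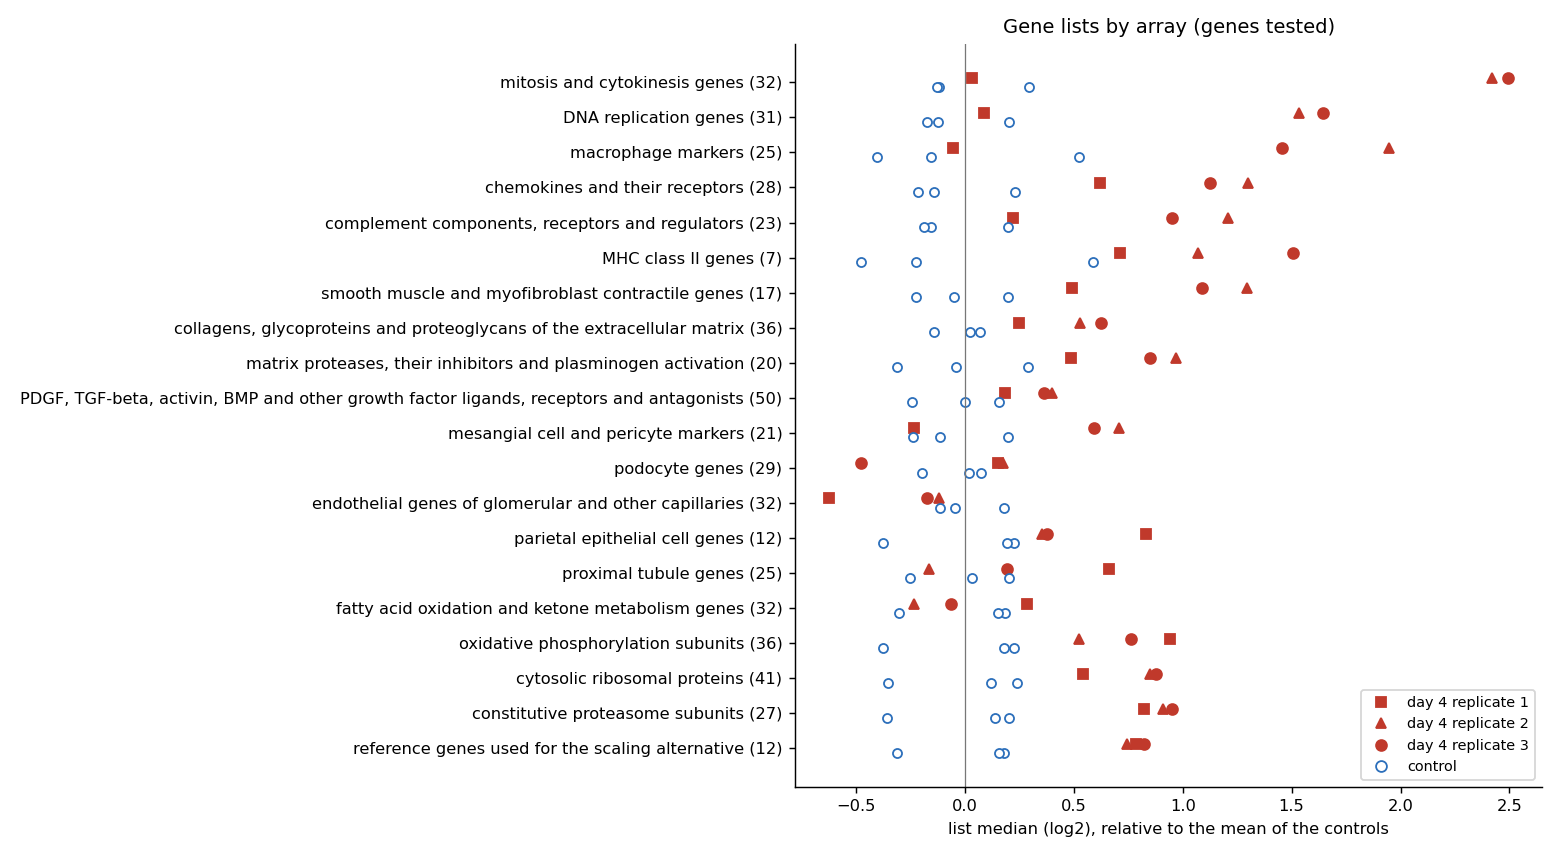
Median over the tested members of each of 20 gene lists of the log2 signal relative to the mean of the controls, for each array; the day 4 arrays are filled markers, with replicate 1 as a square, and the control arrays are open circles. Replicate 1 lies among the controls for mitosis, replication and macrophage genes, above the other day 4 arrays for proximal tubule genes, and with them for proteasome and reference genes.

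Podocyte genes changed in both directions. Of 29 tested, 5 rose (17.2%, below the 25.6% of all genes) and 8 fell (27.6%, near the 26.7% of all genes). The median was -0.04 (-0.66, with 1 higher and 16 lower, with the reference genes). With control replicate 4 left out, 3 rose and 8 fell. Synpo, an actin-binding protein of foot processes, read -0.37, -0.14 and -0.65 on day 4 arrays and 1.02, 2.25 and 1.02 on controls, a fall of 1.82 on the log2 scale (adjusted p = 0.00058). Kirrel1, a slit diaphragm protein, read -1.39, -0.77 and -0.62 on day 4 arrays and 0.24, 1.14 and 0.26 on controls, a fall of 1.47. Nphs1, nephrin, read 4.65, 4.79 and 4.32 on day 4 arrays and 5.11, 4.34 and 5.07 on controls, which overlap (change -0.25 ± 0.21, adjusted p = 0.32). Trpc6, a calcium channel of podocytes, was not well above background on any control and was at least 4.53-fold higher on day 4. Its adjusted p of 0.01 comes from limma on the readings themselves, not from that bound. Among 11 podocyte genes with ordered probes the median change was -0.44 at the 5′ and 0.08 at the 3′ probes.

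Endothelial genes fell more often than they rose: 8 of 32 fell and 2 rose, against 26.7% and 25.6% of all genes, so the share that fell lies near the background. With the reference genes 19 fell and 1 rose, and without day 4 replicate 1, 5 fell and 2 rose. Kdr, the main VEGF receptor, read 5.48, 6.13 and 6.11 on day 4 arrays and 7.32, 7.02 and 6.88 on controls. All day 4 arrays were lower (change -1.16 ± 0.23, adjusted p = 0.001), and the level on day 4 was also below that of day 3 (difference -1.57, adjusted p = 0.0045). Flt1 and Tek, receptors of VEGF and of the angiopoietins, fell at both of their probes, by 1.14 and 1.58 at the 5′ and by 1.10 and 1.02 at the 3′. Angpt2, which antagonises Tek, read 1.74, 3.72 and 3.14 on day 4 arrays and 0.99, 0.55 and 0.88 on controls, a rise of 2.06 ± 0.43 (adjusted p = 0.0015), with 1.66 at the 5′ probe.

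Of 12 parietal epithelial genes, 4 rose (33.3%, against 25.6% of all genes) and 1 fell (8.33%). Only 1 rose and 1 fell without control replicate 4, and likewise with the reference genes, and without day 4 replicate 1, 2 rose and 1 fell. Krt18, a keratin of simple epithelia, read 4.60, 3.41 and 3.84 on day 4 arrays and 2.50, 1.52 and 2.72 on controls, a rise of 1.70 ± 0.35 (adjusted p = 0.0013). Pax2 read -2.03, -2.22 and -1.996 on day 4 arrays and -1.32, -0.54 and -1.27 on controls, a fall of 1.04 (adjusted p = 0.00081). Replicate 1 was the highest day 4 array in 9 of the 12, and in 10747 of all 23187 genes.

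Tubule genes marked replicate 1. In 25 of 25 proximal tubule genes it was the highest day 4 array, by between 0.42 and 1.18 above the mean of replicates 2 and 3. The list's median relative to the control mean was 0.66, -0.16 and 0.19 on day 4 arrays and 0.03, -0.25 and 0.20 on controls. Of the 25, 3 rose (12%) and 3 fell (12%), shares below the background. None rose without replicate 1, 1 rose and 1 fell without control replicate 4, and none rose and 5 fell with the reference genes. Slc34a1, the phosphate transporter of the proximal brush border, read 6.81, 6.17 and 6.47 on day 4 arrays and 6.32, 5.70 and 6.43 on controls (adjusted p = 0.32, and 0.76 at the 5′ probe). Lrp2, the endocytic receptor megalin, read 6.63, 5.95 and 6.07 on day 4 arrays and 5.99, 5.11 and 5.92 on controls (adjusted p = 0.13). Of 23 genes of the loop, distal tubule and collecting duct, 1 rose and 6 fell (26.1%, near the 26.7% of all genes). With the reference genes none rose and 14 fell. Umod, uromodulin, had a change of 0.06 ± 0.22. The part of tubule carry-over in the lower values of replicate 1 for proliferation and macrophage genes was not tested.

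Several genes of fatty acid metabolism fell on day 4, though the list as a whole did not shift. Creb3l3, a transcription factor of the fasting response, read -2.07, -1.58 and -1.95 on day 4 arrays and 1.94, 2.17 and 2.14 on controls. The groups lay far apart (change -3.95 ± 0.78, adjusted p = 0.001). Cpt1a, which admits fatty acids to mitochondria, read 1.76, 1.65 and 1.00 on day 4 arrays and 2.70, 2.90 and 2.86 on controls, a fall of 1.34 (adjusted p = 0.005). Pdk4, which restrains pyruvate oxidation, had a change of -2.34 at its 3′ probe (adjusted p = 0.038, and 0.09 without control replicate 4) and of -4.94 at its 5′ probe. Angptl4, an inhibitor of lipoprotein lipase, fell by 2.76. Over the whole list of 32, 3 rose and 5 fell, fewer than the background in both directions, and the median was 0.00058. The counts were 3 and 3 without control replicate 4, and 1 and 12 with the reference genes.

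With the 75th percentile as the scale, most genes of the proteasome, the ribosome and oxidative phosphorylation rose, by similar amounts. Of 27 proteasome subunits 26 rose and none fell (median 0.89), of 41 cytosolic ribosomal proteins 36 rose and 1 fell (median 0.77), and of 36 subunits of oxidative phosphorylation 29 rose and 1 fell (median 0.76). The members that rose did so by 0.42 to 1.38, by 0.42 to 1.39 and by 0.51 to 1.39. Of the 12 genes used as reference 10 rose and 1 fell, with a median of 0.73, so scaling to them brought the medians to 0.28, 0.15 and 0.15. On that scale 9 proteasome, 8 ribosomal and 6 oxidative phosphorylation genes rose, and 1, 3 and 2 fell. Psmb6, a catalytic subunit of the proteasome, read 3.28, 3.21 and 3.41 on day 4 arrays and 2.09, 1.54 and 2.12 on controls (change 1.38 ± 0.16, adjusted p = 0.00014). Ppia, cyclophilin A, read 4.63, 4.93 and 4.88 on day 4 arrays and 3.42, 2.87 and 3.52 on controls, a rise of 1.54. In the 3 lists other than the reference genes the median change was larger at the 5′ probes. Among 9 ribosomal pairs it was 1.04 at the 5′ and 0.88 at the 3′ probes, and among 7 proteasome pairs 1.12 and 0.79. It was 1.02 and 0.81 among 4 oxidative phosphorylation pairs, and 0.69 and 0.70 among 5 reference gene pairs.

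The exceptions in these lists stood far below the rest. Rpl37, a ribosomal protein, read -1.41, -1.72 and -1.38 on day 4 arrays and 0.51, 2.61 and 0.60 on controls, a fall of 2.74 on the log2 scale. Cox6a2, the muscle form of a cytochrome oxidase subunit, read -0.34, -0.49 and -0.30 on day 4 arrays and 4.13, 6.64 and 4.50 on controls, with a change of -5.47 at this probe and -0.82 at another, 318 bases away. Polr2a, the largest subunit of RNA polymerase II, fell by 1.94, and by 1.74 at its 5′ probe, and was the reference gene that fell. None of the 3 passed against day 2, 3 or 5, where the differences lay between -0.36 and 0.20.

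Of 27 genes of folding and secretion in the endoplasmic reticulum 18 rose and 5 fell, and with the reference genes 6 rose and 6 fell. Pdia6, a disulphide isomerase, read 4.59, 5.11 and 4.96 on day 4 arrays and 3.60, 2.97 and 3.56 on controls, a rise of 1.51 ± 0.21 (adjusted p = 0.00021). Kdelr3, a retrieval receptor, rose by 2.28. Sec61a1, the translocation channel, fell by 1.77. All 10 genes of the heat shock and tissue handling list rose, by 0.66 to 1.23, with a median of 0.92. Of the 10, 7 rose without control replicate 4, and 2 rose with the reference genes, with a median of 0.30.

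The largest falls included genes known from other tissues. The 12 largest, among genes with a symbol and measured in both groups, lay between -7.66 and -4.98. Foxe3, a transcription factor of the lens, read -4.03, -4.08 and -3.75 on day 4 arrays and 3.54, 4.54 and 3.03 on controls (change -7.66 ± 1.17, adjusted p = 0.00028). Its probe lies on chromosome 5, minus strand, at chr5:135286258-135286317, and is 70.0% G and C; capitals mark its 9 CpG pairs.
Foxe3 probe: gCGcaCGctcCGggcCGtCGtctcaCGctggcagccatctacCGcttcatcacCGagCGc
Pla2g4b, a phospholipase, read -4.20, -4.03 and -4.02 on day 4 arrays and 2.45, 4.01 and 2.39 on controls. None of the 12 passed against day 2, 3 or 5, where the differences lay between -1.36 and 0.91, -1.73 and 0.91, and -2.22 and 0.33. Or2d2b, Or2d2, Or9i1b and Or10a2, olfactory receptor genes, stood among the 12, and the family was then counted, after its values were seen. Of 168 tested 108 fell and 5 rose, with a median of -1.20. Of all genes 26.7% fell and 25.6% rose. Members could pass the filter on dim probes through the controls alone, where they read higher, so the count is a description and no test. Of those 168, 113 were well above background on all 3 day 4 arrays and 158 on all 3 controls, and 80 fell without control replicate 4. With the reference genes 142 fell, and with normexp background correction 23 did.

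Direction also went with base composition. In the fifth of genes with the lowest probe G and C content 35.5% rose and 18.6% fell, and in the fifth with the highest 13.8% rose and 39.9% fell. Genes without a current symbol fell more often (3922, against 2130 that rose) than those with one (2266, against 3801 that rose). When the trend of the difference on probe G and C content was removed, 6000 genes rose and 5849 fell against control. Of the differences from control described above, 5 then lost their call: Inhba (adjusted p = 0.052), Gpnmb (0.057), Mki67 (0.053), Pax2 (-0.44, 0.054) and Pdgfb (-0.63, 0.12). That of Nphs1 passed, at -0.49 (0.027).

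Against the other days after the antibody far fewer genes separated day 4. Of the 23187 genes, 14 were higher (0.0604%) and 9 lower (0.0388%) than on day 2, 0.0992% in all. Against day 3, 377 were higher (1.63%) and 316 lower (1.36%), 2.99% in all, and against day 5, 478 were higher (2.06%) and 165 lower (0.712%), 2.77% in all. At an unadjusted p under 0.05 the numbers were 3225, 4767 and 3584. Day 2 and day 4 arrays were read on the same scan day and day 4 replicate 1 shared the day 2 slide. Days 3 and 5 were read on the other scan day. The comparisons share the day 4 arrays, so their values are given side by side.

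A group of genes was as high on day 2 as on day 4 and low on every array of the other scan day. Rps26, a ribosomal protein, read 2.40, 2.84 and 2.70 on day 4 arrays and 2.75, 2.71 and 2.44 on day 2 arrays, against a mean of -0.33 on day 1, -1.14 on day 3, -1.96 on day 5 and -1.08 in controls. Krt72, a keratin of the hair follicle sheath, read -2.18, -2.48 and -1.75 on day 4 arrays and averaged -2.76 on day 2, and no array of days 1, 3 and 5 or of the controls read it well above background. Tsg101, which sorts proteins into endosomes, averaged -1.69 on day 4 and -1.81 on day 2, against means from -4.89 to -4.01 in the other groups. Against day 2 none of the 3 passed, with differences of 0.01, 0.62 and 0.12. All 3 passed against days 3 and 5: Rps26 was higher by 3.78 and 4.61, Tsg101 by 2.97 and 3.20, and Krt72 at least 6.14-fold and 7.39-fold. Against controls, Rps26 was higher by 3.73 and Tsg101 by 2.33 on the log2 scale, and Krt72 was at least 5.66-fold higher. Scan day and group cannot be told apart there.

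Other genes were higher than on day 2, on the same scan day, though not all of them rose against control. Sel1l2 read -4.20, -3.93 and -4.28 on day 4 arrays and between -7.01 and -6.67 on day 2 arrays. It was not well above background on day 2, so only a bound of at least 1.52-fold higher is given. Its adjusted p of 0.012 comes from limma on the readings themselves, not from that bound. With normexp no gene passed against day 2. Angpt2 read 1.74, 3.72 and 3.14 on day 4 arrays and 0.51, -0.04 and 0.61 on day 2 arrays, a difference of 2.51 ± 0.43 (adjusted p = 0.042, and 0.056 with the G and C trend removed). Cpe, a carboxypeptidase of secretory granules, read 0.46, 1.72 and 1.19 on day 4 arrays and -1.53, -1.66 and -0.57 on day 2 arrays, a difference of 2.37 (adjusted p = 0.032), while it overlapped the controls. Agtr1a read 2.75, 3.36 and 2.84 on day 4 arrays and 1.09, 1.51 and 1.96 on day 2 arrays, a difference of 1.46 (adjusted p = 0.032). Cdh11, a mesenchymal cadherin, was 1.23 higher than on day 2 and 0.89 higher than on day 3, with 0.17 ± 0.21 against control (0.07 at the 5′ and 0.25 at the 3′ probe of its ordered pair). B3galt2, a galactosyltransferase, was 1.76 higher than on day 2. Osr1, a transcription factor of kidney development, and Gimd1 were not well above background on any day 2 array and were at least 1.50-fold and 2.94-fold higher on day 4.

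Genes below their day 2 level included Sele, Lyve1 and Syk. Of the endothelial and macrophage lists, none of 32 and none of 25 members passed as lower than on day 2. Sele, the endothelial selectin that captures leukocytes, read -4.76, -6.37 and -3.16 on day 4 arrays and -0.82, -0.75 and -1.52 on day 2 arrays, a difference of -3.74 ± 0.66 (adjusted p = 0.0497, and 0.056 with the G and C trend removed). It was well above background on 1 day 4 array and on no control. Lyve1, a hyaluronan receptor of lymphatic endothelium and some macrophages, read 0.47, 0.80 and 1.01 on day 4 arrays and 2.93, 2.81 and 2.12 on day 2 arrays. It was lower than on day 2 by 1.86, than on day 3 by 2.13, than on day 5 by 1.07 and than in controls by 0.71, the last with an adjusted p of 0.031 that became 0.051 without control replicate 4; its 5′ probe was lower than in controls by 1.24. Syk, a kinase of immune receptors, read -1.86, -2.24 and -2.16 on day 4 arrays and between -1.13 and -0.75 on day 2 arrays, a difference of -1.19 (adjusted p = 0.018), and it was below days 3 and 5 by 1.14 and 1.05. Atp12a, a proton pump, was 3.39 lower and Cacnb2, a calcium channel subunit, 1.04 lower than on day 2. Or7g89 was not well above background on any day 4 array and was at least 1.53-fold lower. Without day 2 replicate 2 none of the 23187 genes passed against day 2, and without day 2 replicate 3, 2 did.

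Against day 3, 2 of the 28 chemokines and receptors were higher and none lower, and the median of the list was -0.30. Cxcl13 differed by 2.90 and Ccl20 by 2.47 (adjusted p = 0.026 and 0.035). Of 25 cytokines, adhesion molecules and their regulators 7 were lower than on day 3, and of 27 interferon response genes 7 were. Their medians were -0.44 and -1.28, and no member of either list was higher. Of all genes 1.63% were higher and 1.36% lower than on day 3. Lower than on day 3 were Dnase1l3, a secreted nuclease of dendritic cells and macrophages, by 4.13 (adjusted p = 0.0069), Edn1, the endothelin precursor, by 2.60 (adjusted p = 0.0044), and Kdr. Icam1, which overlapped the controls, was lower by 0.88. Krt18 was higher than on day 3 by 1.43, Adamts1 by 1.41 and Agtr1a by 1.05. Against day 5, Ccl20 was higher by 4.45 (adjusted p = 0.0018) and Adamts1 by 1.55. The call of Adamts1 ended against both days with the G and C trend removed (0.70 each, adjusted p = 0.21 and 0.27). Nr1d1, a repressor of the circadian clock, read -4.76, -4.97 and -4.89 on day 4 arrays and -1.87, -0.78 and -3.81 on day 5 arrays, a difference of -2.72 (adjusted p = 0.027), and its control mean was -1.70. It was well above background on 1 day 4 array.

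**Figure D4:**
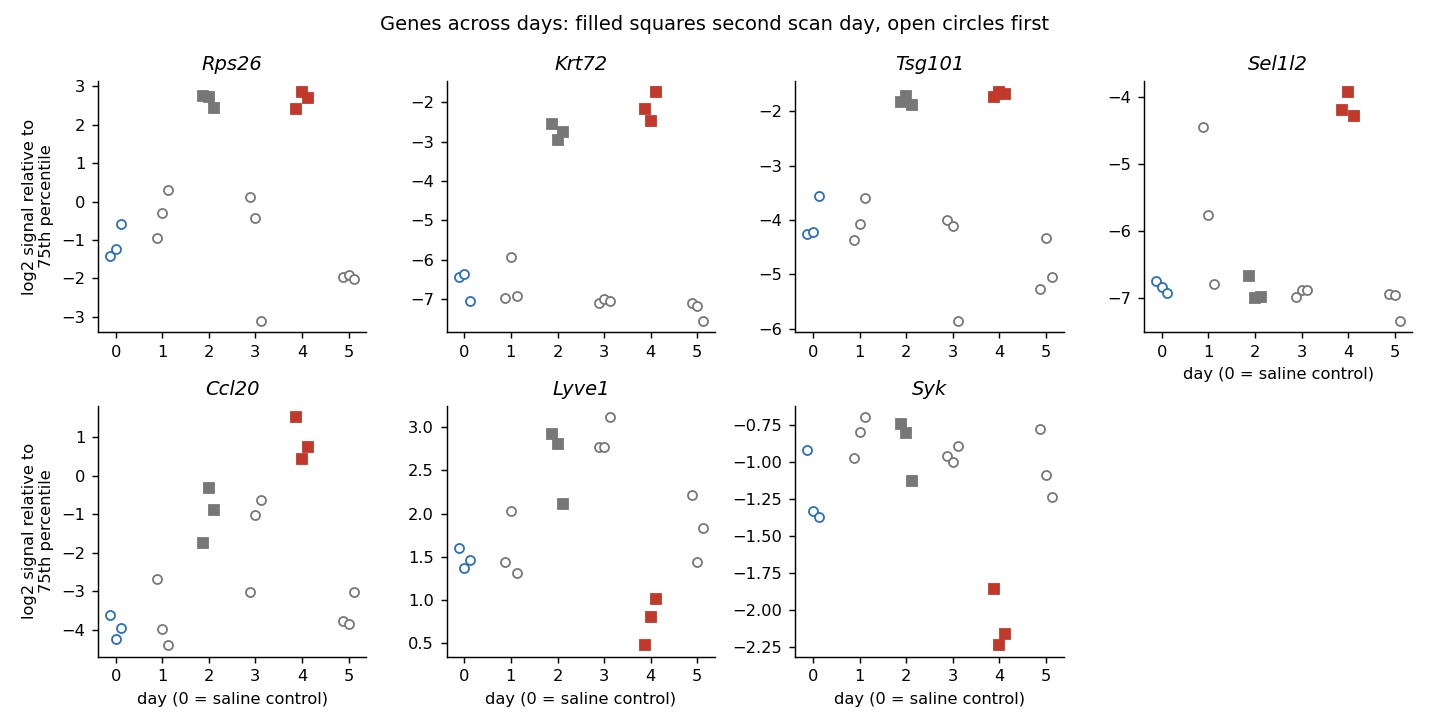
Log2 signal of each array relative to its 75th percentile for 7 genes, from the control (day 0) to day 5; filled squares were read on the second scan day (days 2 and 4) and open circles on the first. Rps26, Krt72 and Tsg101 are high on both days of the second scan day, whereas on day 4 every array lies above every day 2 array for Sel1l2 and Ccl20 and below for Lyve1 and Syk; the difference from day 2 of Ccl20 did not pass (adjusted p = 0.19).

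Within day 4 the arrays differed in a set of genes chosen for that difference, which is a description with no test. Replicate 1 was lower than replicates 2 and 3 in Col8a1, Inhba, Gpnmb, Tpm2 and Tagln, given above, and in Mcpt1, a mast cell protease (-4.49, -0.65 and -0.34 on replicates 1, 2 and 3), and S100a4, a calcium-binding protein of motile cells (3.06, 6.80 and 6.31). It was higher in Lcn2, an injury marker of tubule and neutrophils (1.92, -1.59 and -1.71), in Fos (0.99, -2.18 and -2.64) and in Egr1 (2.57, 0.65 and 0.28), both immediate early transcription factors.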

How the data were processed

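The authors deposited 1 scanner file per array, and the values used here are the processed signals in them, background-corrected intensities from Agilent Feature Extraction 10.7.3.1 with probe positions on rn4, per the file headers; the array had 1 colour, Cy3. The deposited value table, on a log2 scale whose making is not given in the sources used here, ranked every array's probes as the processed signals do (Spearman correlation 1) and served as an alternative. Its column medians were 5.49 for days 0, 2 and 4 and 5.31 for days 1, 3 and 5, and its centring is unknown.

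From the files, log2 of the processed signal was taken relative to the 75th percentile of each array. Control spots and outlier flags were left out. Of 41012 probes, 27836 were well above background on all 3 arrays of at least 1 group. The brightest probe stood for a gene, which gave 23187 genes, 12281 with a current symbol from RefSeq names. limma 3.58.1 in R 4.3.3 fitted the 6 groups of 3 arrays together, with Benjamini-Hochberg adjustment over all genes. The fit was tested on simulated data. Where no array of a group read a probe well above background, only a bound was given for that group, computed against the lowest signal well above background on each array. Probe order along the strand came from the positions in the files.

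The genes, lists and tests were chosen with earlier results of these data known. Genes were named as key members of a list, as the largest changes of each list, as the 12 largest rises and falls, and as the 8 largest in each direction against days 2, 3 and 5. Actn1, Ednra, Flt1, Myh11, Mylk and Tek, the ordered probe pairs, and the olfactory receptor family were chosen after their values were seen. Replicate numbers are not shown to pair arrays, since same-numbered arrays of different days correlated between -0.377 and 0.280. Some genes are not reported here.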

Additional observations from a re-analysis of the deposited data

Results flagged for a closer look

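The genes below are those described above whose day 4 level passed limma's test against another day after the antibody, so that their difference from control changed between days. Against day 2, Angpt2, Cpe, B3galt2, Agtr1a and Cdh11 were higher on day 4 by 2.51, 2.37, 1.76, 1.46 and 1.23 on the log2 scale. Gimd1, Sel1l2 and Osr1, not well above background on day 2, were at least 2.94-fold, 1.52-fold and 1.50-fold higher. Sele (-3.74), Atp12a (-3.39), Lyve1 (-1.86), Syk (-1.19) and Cacnb2 (-1.04) were lower, and Or7g89 was at least 1.53-fold lower. Without day 2 replicate 2 none of these passed.

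Against day 3, Rps26 (3.78), Tsg101 (2.97), Cxcl13 (2.90), Ccl20 (2.47), B3galt2 (1.74), Krt18 (1.43), Adamts1 (1.41), Gimd1 (1.33), Agtr1a (1.05) and Cdh11 (0.89) were higher on the log2 scale. Krt72 and Sel1l2, not well above background on day 3, were at least 6.14-fold and 1.54-fold higher. Dnase1l3 (-4.13), Sele (-2.90), Edn1 (-2.60), Lyve1 (-2.13), Kdr (-1.57), Cacnb2 (-1.48), Syk (-1.14) and Icam1 (-0.88) were lower. Against day 5, Rps26 (4.61), Ccl20 (4.45), Tsg101 (3.20) and Adamts1 (1.55) were higher, and Krt72 and Sel1l2 were at least 7.39-fold and 1.85-fold higher. Nr1d1 (-2.72), Lyve1 (-1.07), Syk (-1.05) and Cacnb2 (-0.72) were lower. Days 3 and 5 were read on the other scan day. Groups of 3 arrays were not tested for outlying arrays.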

How the results depend on the processing

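Against control the count of 12119 genes stayed within 1.5 times under every alternative but normexp background correction (3090) and the replicate block (7814); with 1 array left out it lay between 9318 and 12102. Reference gene and median scaling moved the split, as given above. Against day 2 the 23 genes became 2 with the compared arrays alone, 6 with the authors' value table, 0 with normexp (no gene at 0.05 after adjustment by limma), 8 with the replicate block, 11 with probes well above background on all 18 arrays, 144 with reference gene scaling and 2367 with array weights, and between 0 and 26 with 1 array left out. Against day 3 the 693 became 14 with the compared arrays alone, 374 with no filter, 4 with normexp, 24 with the replicate block, 1426 with reference gene scaling and 3810 with array weights, and between 96 and 499 with 1 array left out. Against day 5 the 643 became 1 with normexp, 27 with the replicate block, 1263 with reference gene scaling and 3503 with array weights, and between 220 and 593 with 1 array left out. The causes were not tested. Of 3382 values of 159 gene results under the alternatives, 2841 kept direction and side of the threshold. A further 438 no longer passed and 36 newly passed. Direction changed in 57 values whose main result had not passed, and in 10 whose main result had. These 10 were C1s (-0.0205), Ednra (-0.80), Rb1 (-1.26) and Tfrc (-1.31) at the 5′ probe, Myh11 (0.19) at the 3′ probe, and Rb1 (-0.20) with the mean of its probes. The others among them came with normexp: Gimd1 (-0.10), Osr1 (-0.35) and Sel1l2 (-0.21) against control, and Sel1l2 (-0.61) against day 5. Of the 159 results, 67 no longer passed with normexp, 39 with the compared arrays alone and 38 with the replicate block. Without day 4 replicate 2, 34 no longer passed, and without replicate 3, 34. Lost calls are given gene by gene above only for control replicate 4 and the G and C trend, so other genes can lose theirs too. The 5′ and 3′ probe settings, the G and C trend and leaving out control replicate 4 with day 4 replicate 1 were chosen after seeing the data.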

Other observations

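The lists not described above differed in how they stood to the background of 25.6% higher and 26.7% lower. Of 19 apoptosis genes 6 rose and none fell (median 0.66, and 0.05 with the reference genes), and of 23 lysosome genes 11 rose and 1 fell (median 0.47, and -0.15 with the reference genes). Of 19 glycolysis genes 8 rose and 3 fell. Of 24 oxidative stress and iron genes 8 rose and 2 fell, and of 14 Cdk inhibitors and related genes 4 rose and none fell. In these 5 lists the share that fell was below the background. The share that rose was above it, but lay near it for apoptosis genes (31.6%) and Cdk inhibitors (28.6%). With the reference genes none of the Cdk inhibitor list rose and 4 fell. Without control replicate 4, 3 apoptosis, 6 lysosome, 6 glycolysis, 5 oxidative stress and 4 Cdk inhibitor genes rose.

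Of 22 immediate early genes 6 rose (27.3%, near the background) and 4 fell (18.2%). Without day 4 replicate 1, 2 rose, and without control replicate 4, 1 did. Below the background in both directions were vasoactive genes, with 5 of 25 higher and 4 lower, interferon-induced genes, with 4 of 27 higher and 2 lower, and erythroid genes, with none of 6 higher and 1 lower. Of the interferon-induced genes 8 rose without day 4 replicate 1 and 1 without control replicate 4. With the reference genes 3 or fewer members rose in each of these 9 lists.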
